A study of Mus musculus with 3 samples.

Results

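The fibroblast growth factor (FGF) ligands and receptors of a mouse stromal cell line were examined as a group of 10 genes, 6 ligands (Fgf1, Fgf2, Fgf7, Fgf10, Fgf18 and Fgf21) and 4 receptors (Fgfr1, Fgfr2, Fgfr3 and Fgfrl1). They were taken by gene name from a table of 51826 rows, and each name occurred on 1 row. The group was proposed with the FPKM of all 3 libraries known, so it is treated as selected on those values. The data came from ST2 cells, which derive from mouse bone marrow stroma and can form osteoblasts or adipocytes, grown with serum (DMEM in the labels, α-MEM in the study's methods). All 3 cultures were co-transfected with lipofectamine. The control received empty vector with control siRNA. For NELL2 overexpression a NELL2 construct was combined with control siRNA, and for Fn1 knockdown empty vector was combined with siRNAs to Fn1, all siRNA being at 30 nM. Polyadenylated RNA was sequenced from 1 library in each group of this single cell line. There was thus no replicate error, each difference is one between single libraries, and the transfections were transient.

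Most FGFs are secreted proteins that bind receptor tyrosine kinases together with heparan sulfate chains on the cell surface. Ligand binding pairs receptor chains and activates the RAS-MAPK and PI3K-AKT routes, which in turn induce inhibitors of the same signal such as the Sprouty proteins. In the skeleton, Fgf2 and Fgf18 act on the osteoblast lineage, Fgfr1 and Fgfr2 are found in osteoblast precursors, and Fgfr3 is best known from growth plate cartilage. Fgf21 is an endocrine member that needs the coreceptor beta-Klotho (Klb).

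Levels are given as FPKM, fragments scaled to transcript length and to the mapped total of the library, which allows genes of different length to be compared. From low values, depth was estimated at about 23000000 fragments for the control, 23700000 for NELL2 overexpression and 24200000 for Fn1 knockdown. Fragments per gene were estimated from this depth and the median length of its annotated coding transcripts, and the 95% intervals below are exact intervals on these fragments. They cover counting error only, treat PCR copies as independent molecules and say nothing of the spread between cultures. The interval of the ratio to the control left out 1 for 27.1% of 12256 tested genes of known length with NELL2 overexpression and for 47.4% of 12257 after Fn1 knockdown, so an interval that leaves out 1 is common here. A gene was called when log2(FPKM + 1) differed from the control by at least 1 (2-fold on this scale), provided that 1 FPKM was reached in either library. Genes reaching that level are termed tested, although no statistical test was possible. The targeted genes moved as labelled. Nell2 was at 0.640 FPKM in the control and 326 FPKM with the construct, whose transcripts these values do not separate from the endogenous ones, and Fn1 was at 2802 FPKM in the control and 137 FPKM after knockdown. All 12 stromal markers, among them Col1a1, Pdgfrb and Csf1, were at 1 FPKM or more in every library. Of 12 markers of blood, epithelial, endothelial, muscle and neural cells, only the neural tubulin Tubb3 reached 1 FPKM, at 6.06, 5.96 and 11.7 FPKM in control, NELL2-overexpressing and knockdown cells. The summed level of these markers was 7.74, 8.55 and 13.0 FPKM, Cd3e and Epcam were listed at 0 in all 3, and their part in the results was not tested. In such bulk RNA, fewer cells of a type and less RNA per cell cannot be told apart.

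Among the FGF genes, Fgf2 was called in the Fn1 knockdown library. This was 1 of the 7 members tested there, beside 1.23% of all 12574 genes tested (0.684% higher and 0.549% lower). In the NELL2 overexpression library, 0 of 6 members tested were called, beside 0.652% of 12572 genes (0.374% higher and 0.278% lower). These calls depended on the pseudocount. With 0.1 in place of 1, Fgf2 was also called with NELL2 overexpression (log2 1.24), and with 5 its call after Fn1 knockdown was lost (log2 0.87). Whether the Fgf2 ratios of the treated libraries differ from each other was not tested. With a 1.5-fold limit, Fgf2 passed on the higher side and Fgfrl1 on the lower side in both comparisons. The share of all genes past this limit was 2.59% with NELL2 overexpression (1.54% higher and 1.05% lower) and 6.24% after Fn1 knockdown (2.92% higher and 3.32% lower). Both comparisons used the same control library. The members had been picked with values of these libraries known, so these counts are a description.

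**Figure D1:**
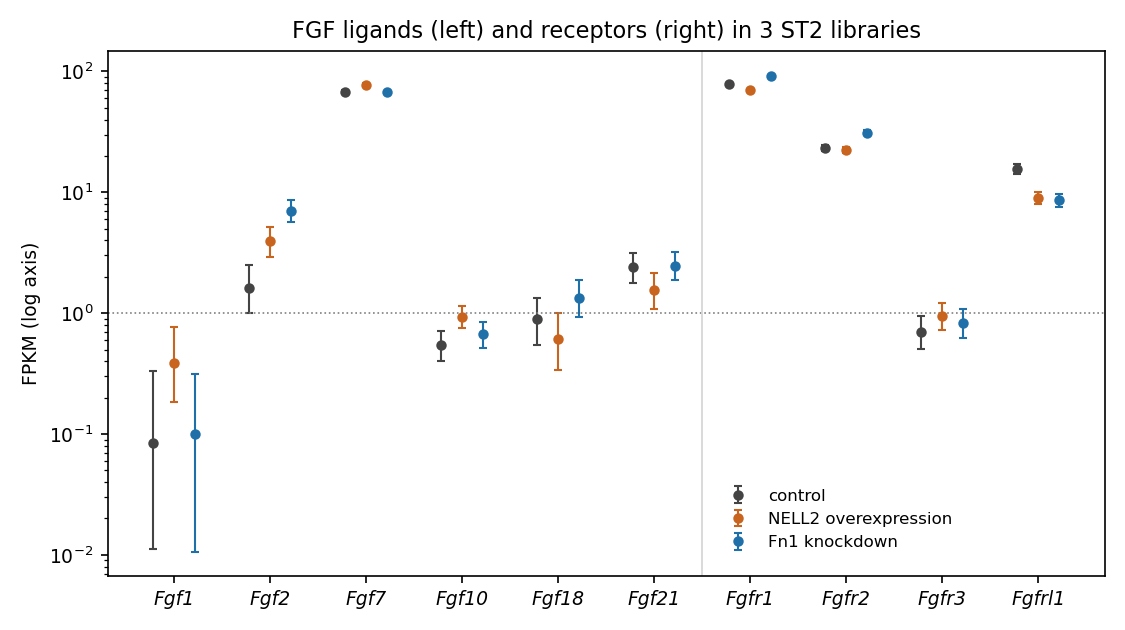
FPKM (log axis) of the 6 FGF ligands and 4 receptors in control, NELL2-overexpressing and knockdown cells, 1 library each; bars are 95% counting intervals on estimated fragments and the dotted line marks 1 FPKM. Fgfr1 and Fgf7 stood near the top in each library, Fgf2 was at 1.62, 3.98 and 7.06 FPKM, and Fgfrl1 was highest in the control.

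The ligands were examined first. Fgf7 (GRCm38 chr2:126034658-126091185, plus strand), also called keratinocyte growth factor, a paracrine ligand made by mesenchymal cells, was by far the most abundant. It was at 68.1 FPKM in control cells, 78.0 FPKM in NELL2-overexpressing cells and 67.1 FPKM in knockdown cells. The NELL2 overexpression library was the highest by a small margin, 1.14 times the control (95% counting interval 1.10 to 1.19), and the knockdown library lay within counting error of the control (0.985 times, 0.942 to 1.03). In the control Fgf7 made up 92.5% of the summed FPKM of the 6 ligands. It stood above 92.4% of all genes that reached 1 FPKM.

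Fgf2, basic FGF, a mitogen for stromal cells and a regulator of osteoblast precursors, was at 1.62 FPKM in control cells, 3.98 FPKM in NELL2-overexpressing cells and 7.06 FPKM in knockdown cells. Both treated libraries were above the control, and the knockdown library was the highest. The level after Fn1 knockdown was 4.35 times the control (2.64 to 7.41), with a log2 ratio of 1.62 on the FPKM + 1 scale. This ratio ranked 24 from the highest down among the 12574 genes tested, and 0.294% of them changed by more in either direction. With NELL2 overexpression the FPKM was 2.45 times the control (1.41 to 4.29), and the log2 ratio of 0.92 did not reach the limit. It ranked 54 among 12572 genes from the highest ratio down. The share of Fgf2 in the summed ligand FPKM was 2.20% in control cells, 4.65% in NELL2-overexpressing cells and 8.97% in knockdown cells, and the ratio of Fgf7 to Fgf2 went from 42.0 through 19.6 to 9.50.

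The Fgf2 value rests on few or many fragments depending on the transcript. Fgf2 (ENSMUSG00000037225.13, GRCm38 chr3:37348346-37410108, plus strand) has 8 annotated transcripts, with coding ones from 462 to 5973 bases. At the median coding length of 535 bases the values correspond to 20, 50 and 91 fragments in control, NELL2-overexpressing and knockdown cells. At the longest coding length they correspond to 222, 564 and 1020 fragments, and the interval of the ratio after Fn1 knockdown narrows to 3.77 to 5.07. The gene value does not tell which transcripts were present, and a change in their mix was not tested. Exons of Fgf2 also overlap those of 2 other genes. Nudt6, a nudix hydrolase gene on the opposite strand, shares 640 exonic bases with Fgf2, and it was at 0.748, 1.27 and 1.44 FPKM in the same order. Its ratio was 1.69 (0.885 to 3.35) with NELL2 overexpression and 1.92 (1.01 to 3.71) after Fn1 knockdown, on 16, 28 and 32 fragments. Both ratios were smaller than those of Fgf2, but at the median coding length the counting intervals of the 2 genes overlapped in both comparisons. Gm43439, a noncoding transcript on the same strand, shares 255 bases and was at 0.184 FPKM or less. Whether strand was used in counting is not given in the sources used here, and the part of the overlaps was not tested.

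The RefSeq promoter window of Fgf2, from 250 bases before to 50 bases after a transcription start (GRCm38.p6 chr3:37348403-37348702, plus strand), is shown because Fgf2 is the member that was called, and that of Fgfrl1 (chr5:108693979-108694278, plus strand) because Fgfrl1 was the one below the control by over 1.5-fold in both comparisons. Capitals mark the GC box, GGGCGG, searched on both strands.
Fgf2: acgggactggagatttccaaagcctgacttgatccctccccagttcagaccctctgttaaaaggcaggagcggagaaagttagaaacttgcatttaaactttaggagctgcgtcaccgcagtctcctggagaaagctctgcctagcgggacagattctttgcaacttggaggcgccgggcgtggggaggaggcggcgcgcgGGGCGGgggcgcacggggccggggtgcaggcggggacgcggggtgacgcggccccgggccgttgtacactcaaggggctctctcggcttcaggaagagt
Fgfrl1: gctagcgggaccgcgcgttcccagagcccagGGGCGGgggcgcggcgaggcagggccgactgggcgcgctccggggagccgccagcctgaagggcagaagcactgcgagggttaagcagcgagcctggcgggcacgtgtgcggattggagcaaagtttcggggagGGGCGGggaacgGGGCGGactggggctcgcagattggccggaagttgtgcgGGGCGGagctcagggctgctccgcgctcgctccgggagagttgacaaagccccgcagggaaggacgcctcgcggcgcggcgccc
Fgf2 has 1 GC box in this window and Fgfrl1 has 4, and 35.7% of all 32851 windows of this length hold at least 1. The letters GCGNGGGCG, bound by the EGR factors, were found once in each window and overlap a GC box there, and 5.55% of all windows hold them. The antioxidant response letters TGACNNNGC were found 2 times in the Fgf2 window and once in that of Fgfrl1, and 12.4% of windows hold them. Neither window holds TATAAA or the AP-1 letters TGANTCA, which are in 13.6% and 7.81% of windows. Windows were given for 8 of the 10 members, all but Fgf1 and Fgfr1. GC content was 62.7% for Fgf2 and 73.7% for Fgfrl1, within a range of 43.7% for Fgfr2 to 78.7% for Fgf18 over the members' windows. One of the Fgfr3 windows holds the same numbers of these motifs as that of Fgfrl1, with 4 GC boxes. These matches describe the sequence and were not tied to the levels.

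Fgf21 (chr7:45613886-45615490, minus strand), the endocrine ligand known from liver and stress responses, was at 2.40 FPKM in control cells, 1.56 FPKM in NELL2-overexpressing cells and 2.46 FPKM in knockdown cells. The NELL2 overexpression library was the low one, at 0.651 times the control, but the interval of 0.412 to 1.02 included 1. About 52, 35 and 57 fragments stood behind these values. Its coreceptor Klb was at 0.0450 FPKM or less in all 3 libraries and Kl was listed at 0.

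The other 3 ligands were below 1 FPKM in the control. Fgf18 (chr11:33117430-33147400, minus strand), a ligand that promotes bone and cartilage growth, was at 0.891 FPKM in control cells, 0.607 FPKM in NELL2-overexpressing cells and 1.34 FPKM in knockdown cells. It was tested in the second comparison alone, because only the knockdown library reached 1 FPKM, and its ratio there of 1.51 had an interval of 0.867 to 2.79. Fgf10 (chr13:118669791-118792115, plus strand), a mesenchymal ligand that signals through the epithelial form of Fgfr2, was at 0.542, 0.927 and 0.667 FPKM in the same order. With NELL2 overexpression it was at 1.71 times the control (1.21 to 2.48), below the 1 FPKM needed for a call. That interval included 1 when the median length of all transcripts was used, 0.661 to 4.18. Fgf1, acidic FGF, which can bind all FGF receptors, was at 0.0842, 0.385 and 0.101 FPKM, or about 2, 9 and 2 fragments. Its ratio of 4.57 with NELL2 overexpression had an interval of 0.902 to 41.4, so no difference was detectable at the median transcript length. At the longest coding length the interval was 1.99 to 10.8 and left out 1.

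**Figure D2:**
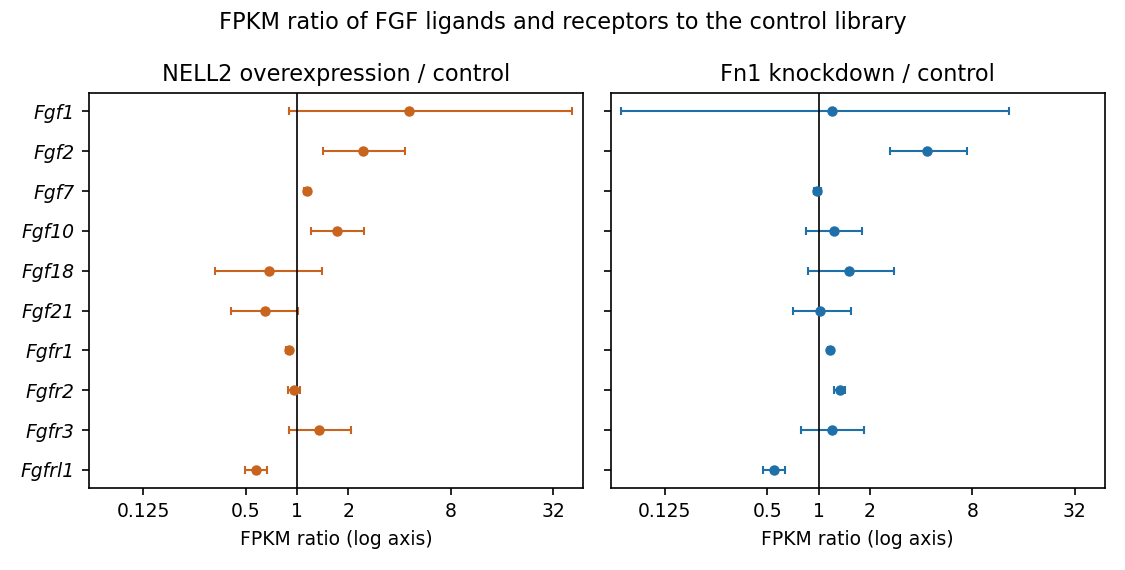
Ratio of FPKM to the control library (log axis) for the 10 FGF genes with NELL2 overexpression (left) and after Fn1 knockdown (right); points are single-library ratios, bars are 95% counting intervals on estimated fragments, and the vertical line marks a ratio of 1. Fgf2 lay right of the line and Fgfrl1 left of it in both panels, and the bars of Fgf1 were the widest.

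The receptors were then compared. Fgfr1 (chr8:25513654-25575718, plus strand), the main FGF receptor kinase of mesenchymal cells, was at 78.9 FPKM in control cells, 70.3 FPKM in NELL2-overexpressing cells and 92.2 FPKM in knockdown cells. The knockdown library was the highest and the NELL2 overexpression library the lowest. The ratios were 0.892 (0.862 to 0.923) and 1.17 (1.13 to 1.21), differences that exceed counting error, as many genes did, and have no replicate check. Fgfr1 accounted for 66.5%, 68.4% and 69.4% of the summed FPKM of the 4 receptors.

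Fgfr2 (chr7:130162451-133123350, minus strand), whose splice forms distinguish epithelial from mesenchymal ligands, was at 23.4 FPKM in control cells, 22.6 FPKM in NELL2-overexpressing cells and 31.2 FPKM in knockdown cells. The first 2 libraries lay within counting error of each other (ratio 0.965, 0.891 to 1.05), and the knockdown library was above them at 1.33 times the control (1.24 to 1.43). Its log2 ratio of 0.40 did not reach the limit. The gene-level values do not separate the splice forms. The annotated Fgfr2 gene reaches into Ctbp2 on the same strand and shares 314 exonic bases with it, and Ctbp2 was at 22.3, 22.5 and 20.9 FPKM. Antisense or unclassified transcripts that overlap Fgf10, Fgfr1 and Fgfr3 (Gm16263, Gm16159 and G630022F23Rik) were at 0.0472 FPKM or less. Fgfr3 (chr5:33721674-33737068, plus strand), a receptor that restrains growth of cartilage, was at 0.696, 0.943 and 0.835 FPKM, below 1 FPKM in all 3 libraries, and both of its ratios had intervals that included 1.

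Fgfrl1, a receptor-like protein that binds FGFs but lacks the tyrosine kinase domain, was at 15.6 FPKM in control cells, 8.95 FPKM in NELL2-overexpressing cells and 8.56 FPKM in knockdown cells. The control was the highest of the 3, and the counting intervals of the treated libraries, 7.96 to 10.0 FPKM and 7.59 to 9.61 FPKM, overlapped. The NELL2 overexpression library held 57.4% of the control level (ratio interval 0.495 to 0.665) and the Fn1 knockdown library 54.9% (0.472 to 0.635). The log2 ratios of -0.74 and -0.80 ranked 72 and 146 from the lowest among the genes tested, and neither passed the 2-fold limit. Since both ratios divide by the same control value, they are not separate observations. Fgfrl1 (ENSMUSG00000008090.14, GRCm38 chr5:108692382-108706924, plus strand) shares no exon with another annotated gene. Its share of the summed receptor FPKM was 13.2% in control cells, 8.70% in NELL2-overexpressing cells and 6.45% in knockdown cells.

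**Figure D3:**
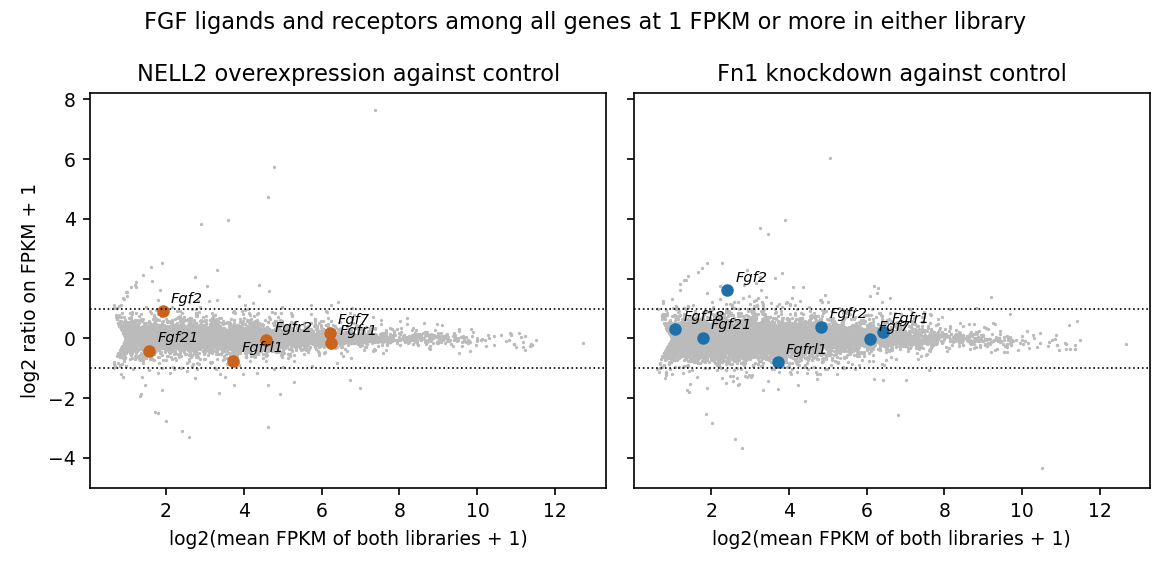
Log2 ratio on the FPKM + 1 scale against log2 of the mean FPKM of both libraries plus 1 for every gene tested (grey; 12572 and 12574 genes) with the tested FGF genes in colour; dotted lines mark the 2-fold limits. After Fn1 knockdown Fgf2 lay above the upper line at 1.62, and Fgfrl1 lay inside the lower line in both panels.

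In the order of levels, Fgfr1, Fgf7, Fgfr2 and Fgfrl1 headed the control library, and the counting intervals of neighbours did not overlap down to Fgf21. Below Fgfrl1, Fgf21, Fgf2, Fgf18, Fgfr3 and Fgf10 each overlapped their neighbour, and Fgf1 was lowest. With NELL2 overexpression Fgf7 was above Fgfr1, and intervals of neighbours overlapped from Fgf21 down. After Fn1 knockdown Fgf2 was next to Fgfrl1, at 7.06 and 8.56 FPKM, with overlapping intervals. All of these overlaps use the median coding length. At the longest coding length Fgf2 had an estimated 222 fragments in the control and 1020 after knockdown, so its intervals are narrower. Overlap at that length was not computed. Over all 10 members, the median log2 ratio was 0.07 with NELL2 overexpression and 0.11 after Fn1 knockdown, beside 0.01 and -0.003 over all genes tested. Over the members tested it was -0.11 (6 members, 2 above 0 and 4 below) and 0.22 (7 members, 5 above 0 and 2 below). Fgf18 entered the latter only through its level in the knockdown library, and without it the median was 0.12 (6 members). With NELL2 overexpression the sign of the median depended on whether members below 1 FPKM were included. The summed FPKM of the 6 ligands was 116% and 107% of the control, and that of the 4 receptors 86.7% and 112%.

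The genes closest to Fgf2 in the pair of log2 ratios, out of 12704 genes with unique names that reached 1 FPKM somewhere, were Hotairm1, Gm5577 and H2-Q7, at Euclidean distances of 0.145, 0.147 and 0.229. H2-Q7, a nonclassical MHC class I gene with near-identical paralogs, was at 3.78, 6.75 and 13.7 FPKM in control, NELL2-overexpressing and knockdown cells. Hotairm1, at 0.136, 0.951 and 2.46 FPKM, and Gm5577, at 1.51, 4.26 and 6.54 FPKM, are antisense genes whose exons overlap other genes. Closest to Fgfrl1 were Gm12264, Ifrd2 and Lrp11, at distances of 0.0265, 0.0358 and 0.0615. Gm12264, an antisense gene overlapping Mprip, was at 1.38, 0.404 and 0.382 FPKM. Ifrd2 was at 15.3, 8.89 and 8.57 FPKM and Lrp11, an LDL receptor-related protein, at 11.3, 6.66 and 6.24 FPKM. This likeness rests on 2 ratios from 3 libraries. The ratios are on the FPKM + 1 scale, which understates changes of low genes. In FPKM itself Hotairm1 changed by a larger factor than Fgf2 in both comparisons, and Gm12264 fell by a larger factor than Fgfrl1.

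The other FGF genes were low. Of 17 further genes, the remaining ligands and Fgfr4, 6 were listed at 0 in all 3 libraries, and only Fgf9 and Fgf13 reached 1 FPKM in any. Fgf9, a ligand expressed in several mesenchymal tissues, was at 1.23, 1.23 and 0.898 FPKM in control, NELL2-overexpressing and knockdown cells. Fgf13, an intracellular member that is not secreted, was at 0.838, 1.01 and 0.617 FPKM. Fgfr4 was at 0.0607 FPKM or less. None was called.

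Coreceptors and ligand-binding proteins were well represented, with 15 of 20 tested and 0 called in either comparison. The shares of all genes called were 0.652% with NELL2 overexpression and 1.23% after Fn1 knockdown. The median log2 ratio was -0.02 with NELL2 overexpression and 0.09 after Fn1 knockdown, beside 0.01 and -0.003 over all genes tested. The heparan sulfate proteoglycans Gpc1 (glypican 1) and Sdc2 (syndecan 2) had the highest means over the 3 libraries, at 134, 158 and 178 FPKM and at 124, 122 and 148 FPKM in the same order. With NELL2 overexpression Sdc4 (syndecan 4), at 129.9 FPKM, was above Sdc2. Gpc1 had the highest ratio of the list in both comparisons (log2 0.24 and 0.41), and the lowest were those of Hspg2 (perlecan) with NELL2 overexpression, at -0.23, and Sdc1 after Fn1 knockdown, at -0.40. Of 12 genes for heparan sulfate synthesis and trimming, 11 and 12 were tested and 0 were called, beside the same shares of all genes. Their median log2 ratios were 0.02 and -0.01. The endosulfatases Sulf2 and Sulf1, which remove sulfate groups from the chains, were the most abundant, and Sulf1 had the largest ratio after Fn1 knockdown (76.6 to 103 FPKM, log2 0.42). The lowest ratios were those of Hs6st1 (log2 -0.13) and Ndst2 (log2 -0.24), both sulfotransferases, and the highest with NELL2 overexpression was that of Extl3 (log2 0.15).

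All 19 adaptor and RAS-MAPK genes were tested and 0 were called, beside 0.652% and 1.23% of all genes tested. Their median log2 ratios were 0.04 and -0.03. Map2k1 and Map2k2, the MEK kinases, had the highest means over the 3 libraries and were at 54.9 and 55.9 FPKM in the control, where Shc1, an adaptor, was at 57.1 FPKM. The largest ratio belonged to Grb2, the adaptor that couples activated receptors to the RAS exchange factors, at 20.0 FPKM in control cells, 21.1 FPKM in NELL2-overexpressing cells and 38.1 FPKM in knockdown cells. Its log2 ratio of 0.90 in the knockdown library stayed below the limit, and the gene overlaps no other annotated gene. Nras, a RAS family GTPase, was the lowest there, at 32.7 and 22.1 FPKM (log2 -0.54). With NELL2 overexpression the extremes were Frs3 (log2 0.36), a docking protein of FGF receptors, and Sos2 (log2 -0.40), a RAS exchange factor.

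Inhibitors of the RAS-MAPK route came next, not all of which need be induced by FGF signalling. Of 11 such genes, 10 were in the table and all 10 were tested. Of these, 0 were called, beside 0.652% and 1.23% of all genes tested. Their median log2 ratios were -0.01 and 0.07. Spred2 and Spred1 were the most abundant, at 22.2 and 18.1 FPKM in the control. Spry2, an antagonist of receptor tyrosine kinase signalling, was at 11.8, 13.3 and 14.5 FPKM, the highest ratio in both comparisons. Dusp6, a phosphatase of ERK, was at 10.0, 9.25 and 8.15 FPKM, and Dusp4 was lowest with NELL2 overexpression (log2 -0.24). The ranges of the log2 ratios over the 10 genes were -0.24 to 0.16 and -0.27 to 0.28.

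Of 11 factors that respond to MAPK activity, all were tested, 0 were called with NELL2 overexpression and 1 after Fn1 knockdown. It was the only one called of 68 tested genes on the pathway lists, or 1.47%, beside 1.23% of all genes. The gene was Ccnd1 (cyclin D1), the cyclin that drives entry into S phase, at 262 FPKM in control cells, 253 FPKM in NELL2-overexpressing cells and 126 FPKM in knockdown cells, where it fell by 1.04 on the log2 scale. Its exons overlap those of LTO1 on the opposite strand. Etv4, an ETS factor induced by FGF signalling, had the lowest ratio with NELL2 overexpression, at 8.40 and 5.55 FPKM (log2 -0.52), and Ier3, an early response gene, the highest, at 54.3 and 71.2 FPKM (log2 0.38). After Fn1 knockdown the highest was Myc (log2 0.30). The median log2 ratio of the list was 0.01 and -0.08.

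**Figure D4:**
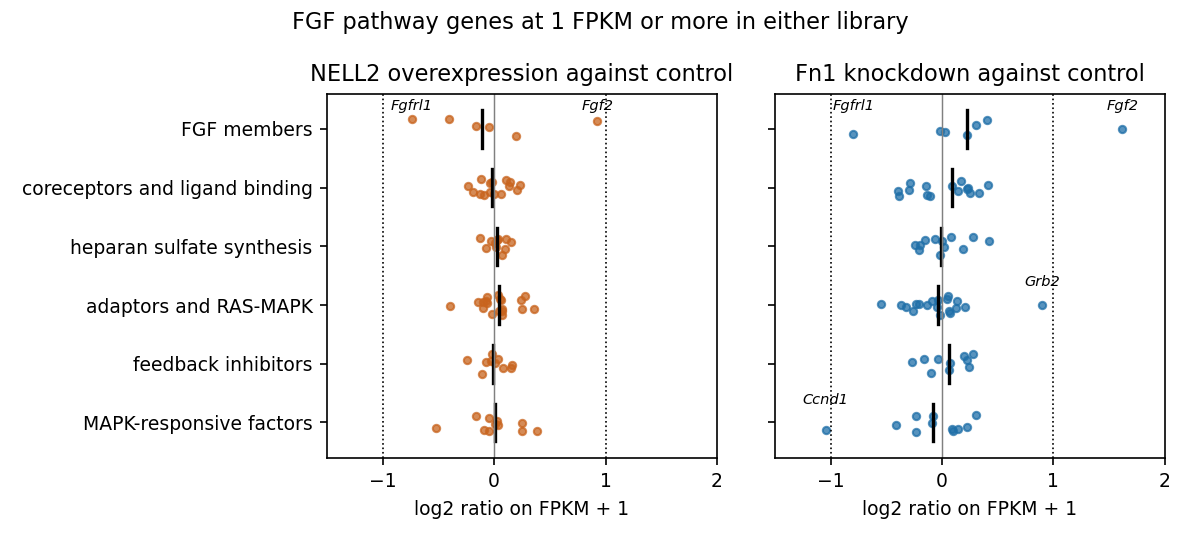
Log2 ratios on the FPKM + 1 scale for the tested genes of the FGF group and of 5 lists of the pathway with NELL2 overexpression (left) and after Fn1 knockdown (right); each point is a gene, black bars are list medians, dotted lines mark 2-fold and genes past 1.5-fold are named. All points lay between the dotted lines with NELL2 overexpression, and Fgf2 and Ccnd1 lay beyond them after Fn1 knockdown.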

How the data were processed

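Per the labels, ST2 cells were transfected in 3 ways, with 1 library in each group. Per the study's methods, the authors mapped paired-end reads to mouse transcripts with HISAT2 (build GRCm38 in the submitters' processing notes) and deposited FPKM per gene. The program for FPKM, its annotation and its strand setting are not given in the sources used here. The authors also name a DESeq normalization, and how it relates to the deposited FPKM is not given in the sources used here.

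Ratios were computed as log2(FPKM + 1), with a 2-fold limit and 1 FPKM or more in either library, and no statistical test was run. FPKM on this scale understates changes of low genes. Depth was estimated from what 1 fragment is worth in genes with a single transcript (at least 600 bases). The procedure was run on simulated FPKM built with the same lengths, so that run could not check the unknown annotation behind the deposited FPKM. Between 29.4% and 30.4% of low values lay within 0.02 of whole fragments, so whole reads were not recovered. Lengths, positions and overlaps came from GENCODE M21, and promoter windows from RefSeq (GRCm38.p6). Intervals used SciPy 1.17.1. Of 51826 rows, 187 had a repeated name.

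The members and gene lists were chosen with earlier results of these data known. Genes named were the 10 members, the targeted genes, genes overlapping a member, the called, 2 most abundant and extreme genes of each list, and the 3 genes nearest to Fgf2 and Fgfrl1, the 2 members with the longest pair of ratios. Other names (Klb, Kl, Fgfr4, Shc1, Sdc4 and single markers) were chosen after their values were seen. Alternatives were pseudocounts of 0.1 and 5, other filters, a 1.5-fold limit, median-of-ratios scaling and other transcript lengths.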

Additional observations from a re-analysis of the deposited data

How the results depend on the processing

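The number of FGF genes called was 0 with NELL2 overexpression and 1 after Fn1 knockdown. With a pseudocount of 0.1 the NELL2 number was 1 (Fgf2), and with a filter of 0.1 FPKM as well it was 2 (Fgf1 and Fgf2), beside 1.42% and 7.10% of all genes tested under these settings (0.652% as reported). With a 1.5-fold limit it was 2 in each comparison (Fgf2 and Fgfrl1), beside 2.59% and 6.24% of all genes tested. With a pseudocount of 5 the Fn1 knockdown number was 0, where the log2 ratio of Fgf2 was 0.87 and 0.398% of all genes were called. Dropping the filter, raising it to 5 FPKM, or median-of-ratios scaling left both numbers as they were. The pathway lists, for which the same settings were chosen after seeing the data, had 0 and 1 genes called. With a pseudocount and filter of 0.1 these were 1 (Fgf22) and 4 (Ccnd1, Fgf16, Fgf22 and Fgfbp1), beside 7.10% and 8.76% of all genes tested. With the 1.5-fold limit they were 0 and 2 (Ccnd1 and Grb2), beside 2.59% and 6.24% of all genes tested. All 89 values of single members under these settings kept their sign. Their size depended on the pseudocount: with 0.1, the NELL2 log2 ratio was 1.40 in place of 0.35 for Fgf1 and 1.24 in place of 0.92 for Fgf2. The interval left out 1 for 5 of the 10 members with NELL2 overexpression and 4 after Fn1 knockdown. Among members tested it did so for 4 of 6 and 4 of 7, beside 27.1% and 47.4% of all genes tested, and these counts are a description. The numbers over the 10 members were 4 and 4 with the median of all transcript lengths, and 6 and 4 with the longest coding transcript, chosen after seeing the data, the sixth being Fgf1. Among members tested they stayed 4 and 4 at both lengths. The shares of all genes tested were 21.8% and 40.9% with the median of all transcript lengths, and 34.2% and 54.1% with the longest coding transcript. A 2-fold rise or fall with a pseudocount of 1 needs 1 FPKM in any case, and scaling shifted log2 ratios by only 0.0097 and 0.00069, so dropping the filter and rescaling test little. No paired analysis was possible because only 1 library per group was analysed here, and none could be left out.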
